A study of Homo sapiens with 6 samples.

Results

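Mitochondrial ribosomal protein genes, named MRPL for the large and MRPS for the small subunit, were read out of a count table for DMS114, a long-established human line derived from small cell lung cancer. Members were all rows whose symbol is MRPL or MRPS followed by a number and, at most, one of the letters A to C, with pseudogene rows left out. This gave 77 of 36458 gene symbols, 48 of the large and 29 of the small subunit, and all 77 passed the filter on low counts that left 17331 genes. Cells had received β-alanine at 2.5 mM for 48 h (3 libraries) or the same volume of vehicle (3 libraries), with no other agent or genetic change stated in the labels. The comparison asked how the compound alters transcripts in a line from a study of metabolism and neuronal invasion. The labels do not state separate cultures, so p-values measure the spread between these libraries, which may be technical.

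Mitochondria carry ribosomes of their own, which make the few proteins encoded by mitochondrial DNA, all of them parts of the respiratory chain and ATP synthase. The ribosomal RNAs come from mitochondrial DNA, whereas every ribosomal protein is encoded in the nucleus, made in the cytosol and imported. Some of these proteins descend from bacterial ribosomal proteins and others exist only in mitochondria. Symbols do not always give the place of the protein: in ribosome structures MRPS18A and MRPS30 sit in the large subunit, and MRPS36, also called KGD4, belongs to the 2-oxoglutarate dehydrogenase complex.

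Library totals ran from 14433801 to 32909568 counts. β-alanine library 1 stood apart on the second principal component of log2 CPM (counts scaled to 1000000 per library), at 27.2 against -9.13 to 1.26 in the other 5 libraries. Of 14 markers of small cell lung cancer and neuroendocrine cells, 9 reached 1 CPM in every library, among them SYP, CHGA and UCHL1, while POU2F3, INSM1 and KRT8 stayed below 1 CPM in every library. The summed CPM of these markers was 440.1 to 485.8 after β-alanine and 401.5 to 407.7 in controls. Of 15 markers of other cell types, 3 (COL1A1, DCN and ACTA2) reached 1 CPM in every library, and the sum was 181.6 to 195.8 after β-alanine and 217.3 to 228.3 in controls, with PTPRC at 0 in 5 of 6 libraries. The part of either marker set in the results below was not tested.

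Of 5 motifs searched in promoters, one of the YY1 type, AAGATGGCG, stood furthest above its share in other genes, so those sites are shown first. YY1 is a zinc finger factor whose motif often lies just after the start of housekeeping genes. RefSeq promoters on GRCh38.p14 (250 bases before to 50 after the annotated start) were on hand for 68 of the 77 genes. The motif, searched on both strands, was in 13 of these 68 promoters (19.1%), in 3.64% of the 11373 promoters of tested genes and in 1.79% of all 27305 promoters. It was in 5 of 20 promoters of genes that rose, in 8 of 33 of genes that were not called (24.2%) and in none of 15 of genes that fell, differences that were not tested. In 10 of the 13 genes a match began after the start site, and in 11 it lay in the orientation written. The motif holds the letters ATG. Whether such matches coincide with the start codon of the protein was not tested. The windows of 30 bases for the 5 genes that rose follow, 5′ to 3′ on the strand of the gene, with the motif or its reverse complement in capitals.
MRPL52 (chr14:22829779-22829808, + strand): acgatgacccAAGATGGCGgagccgtgatt
MRPL52 (chr14:22829813-22829842, + strand): acccagattcAAGATGGCGacttcctgctt
MRPL36 (chr5:1799854-1799883, - strand): ccccccccgcCGCCATCTTccttcctggca
MRPL22 (chr5:154941093-154941122, + strand): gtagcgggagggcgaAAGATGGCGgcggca
MRPL42 (chr12:93467512-93467541, + strand): ggattgaaacAAGATGGCGggttcgtggtg
MRPS10 (chr6:42217833-42217862, - strand): cgggaccggcAAGATGGCGgcgcggacagc

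The matches of MRPL22, MRPL42 and MRPS10 began 36, 9 and 10 bases after the start, that of MRPL36 36 bases before it, and MRPL52 held 2 matches, 98 and 64 bases before. The windows of 2 uncalled paralogues of the MRPS18 family are shown as examples. Their matched letters also lie after the start, by 10 bases in MRPS18A and 24 in MRPS18B. The same held for the uncalled MRPS30, MRPS24, MRPL50, MRPL46 and MRPL38, whose windows are not shown.
MRPS18A (chr6:43687763-43687792, - strand): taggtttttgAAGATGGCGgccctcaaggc
MRPS18B (chr6:30617853-30617882, + strand): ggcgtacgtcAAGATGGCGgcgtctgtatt

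The shares of the other motifs were closer to those in tested genes. The ETS-type motif CCGGAAGT was in 10 of 68 member promoters (14.7%) against 7.80% of promoters of tested genes, with 3 of 20 among genes that rose and 2 of 15 among genes that fell. It was in 9 of 41 promoters of the large subunit and in 1 of 27 of the small. The NRF1-type palindrome was in 1 of 68 (1.47%) against 2.13%. The NF-Y-type letters CCAAT were in 23 of 68 (33.8%) against 35.7%, with 7 of 20 among genes that rose and 2 of 15 among genes that fell, and the TBP-type TATAAA in 3 of 68 (4.41%) against 6.08%. None of these differences between sets of promoters, including that between the subunits, was tested. A match is a description of letters in this window and not a bound site. The transcript of YY1 itself was at 160.3 to 165.8 CPM after β-alanine and 155.2 to 163.5 CPM in controls, a log2 difference of 0.03 ± 0.04 (SE).

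**Figure D1:**
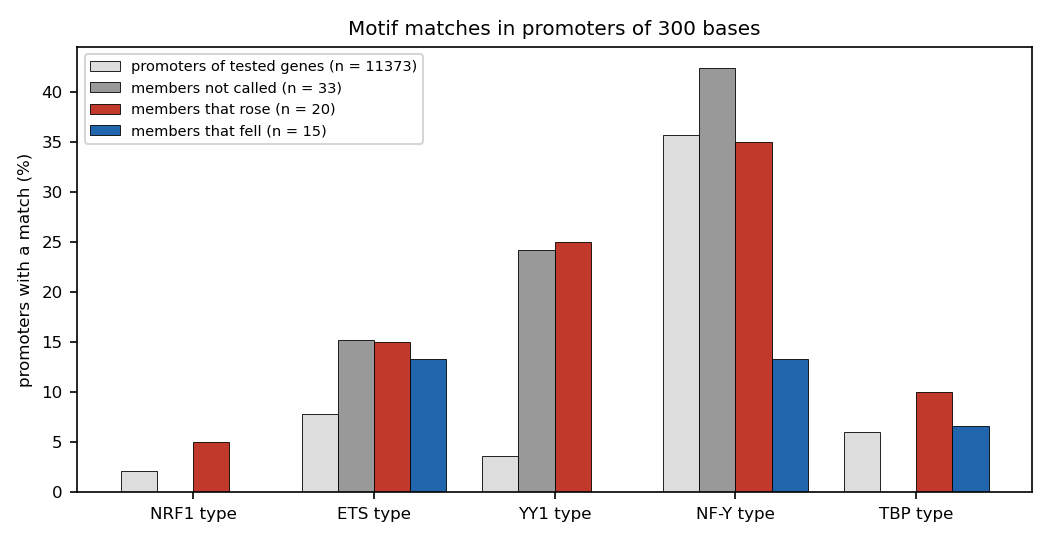
Share of promoters of 300 bases (vertical axis, percent) that hold each of 5 motifs (horizontal axis), for all tested genes with a promoter entry and for member genes that were not called, rose or fell. The YY1-type motif was in 5 of 20 promoters of genes that rose, 24.2% of those not called and none of those that fell, against 3.64% of promoters of tested genes.

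After β-alanine, single mitoribosomal protein genes moved in both directions while the family as a whole hardly moved. Of 77 members, 21 rose, 17 fell and 39 were not called at an adjusted p under 0.05. That is 49.4% called, against 27.9% of all tested genes (14.1% rose and 13.8% fell). Members are more abundant than most genes. At an average log2 CPM of at least 2 the share called was 35.1% of tested genes (17.8% rose, 17.3% fell), beside 38 of 76 members. At 5 or more it was 40.4% (21.9% rose, 18.5% fell), beside 26 of 48 members, of which 18 rose and 8 fell. The median log2 change of the members was 0.05, with quartiles at -0.10 and 0.15, beside -0.0032, -0.16 and 0.15 over all tested genes. The groups did not overlap for 47 members (61.0%), against 39.1% of all tested genes, a share not matched for level. The 39 members that were not called ranged from a log2 difference of -0.17 (MRPL1) to 0.16 (MRPS17). In bulk RNA a lower level in every cell and a smaller number of cells with the transcript cannot be told apart.

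Changes were small, and over all members the falls had a larger median than the rises, as over all tested genes. The median log2 change was -0.28 among the 17 genes that fell and 0.19 among the 21 that rose, beside -0.30 and 0.26 over all tested genes that fell and rose. Members that fell were less abundant, with a median average log2 CPM of 4.91 against 5.91 for those that rose. At an average log2 CPM of at least 5 the falls were not larger. The medians there were -0.16 and 0.18, with 0 falls and 1 rise of at least 1.25-fold. A change of at least 1.25-fold was reached by 7 that fell and 1 that rose, and 11.5% of all tested genes were called with a change of that size, 1083 lower and 910 higher. Calls held with each library left out in turn, and in every other alternative fit at the same threshold, for 19 members, of which 10 fell (MRPL48, MRPS33, MRPL58, MRPS26, MRPL54, MRPL35, MRPL39, MRPL11, MRPL9 and MRPL3) and 9 rose (MRPS15, MRPL47, MRPL52, MRPL34, MRPL49, MRPL33, MRPS36, MRPL28 and MRPS7). Over all tested genes, 13.7% kept a call with each library left out. Without β-alanine library 1 all 38 calls remained, and the counts were 25 and 17. Without β-alanine libraries 2 and 3 they were 11 rising with 11 falling and 13 with 10. Without control libraries 1, 2 and 3 they were 19 with 11, 12 with 11, and 11 with 14.

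**Figure D2:**
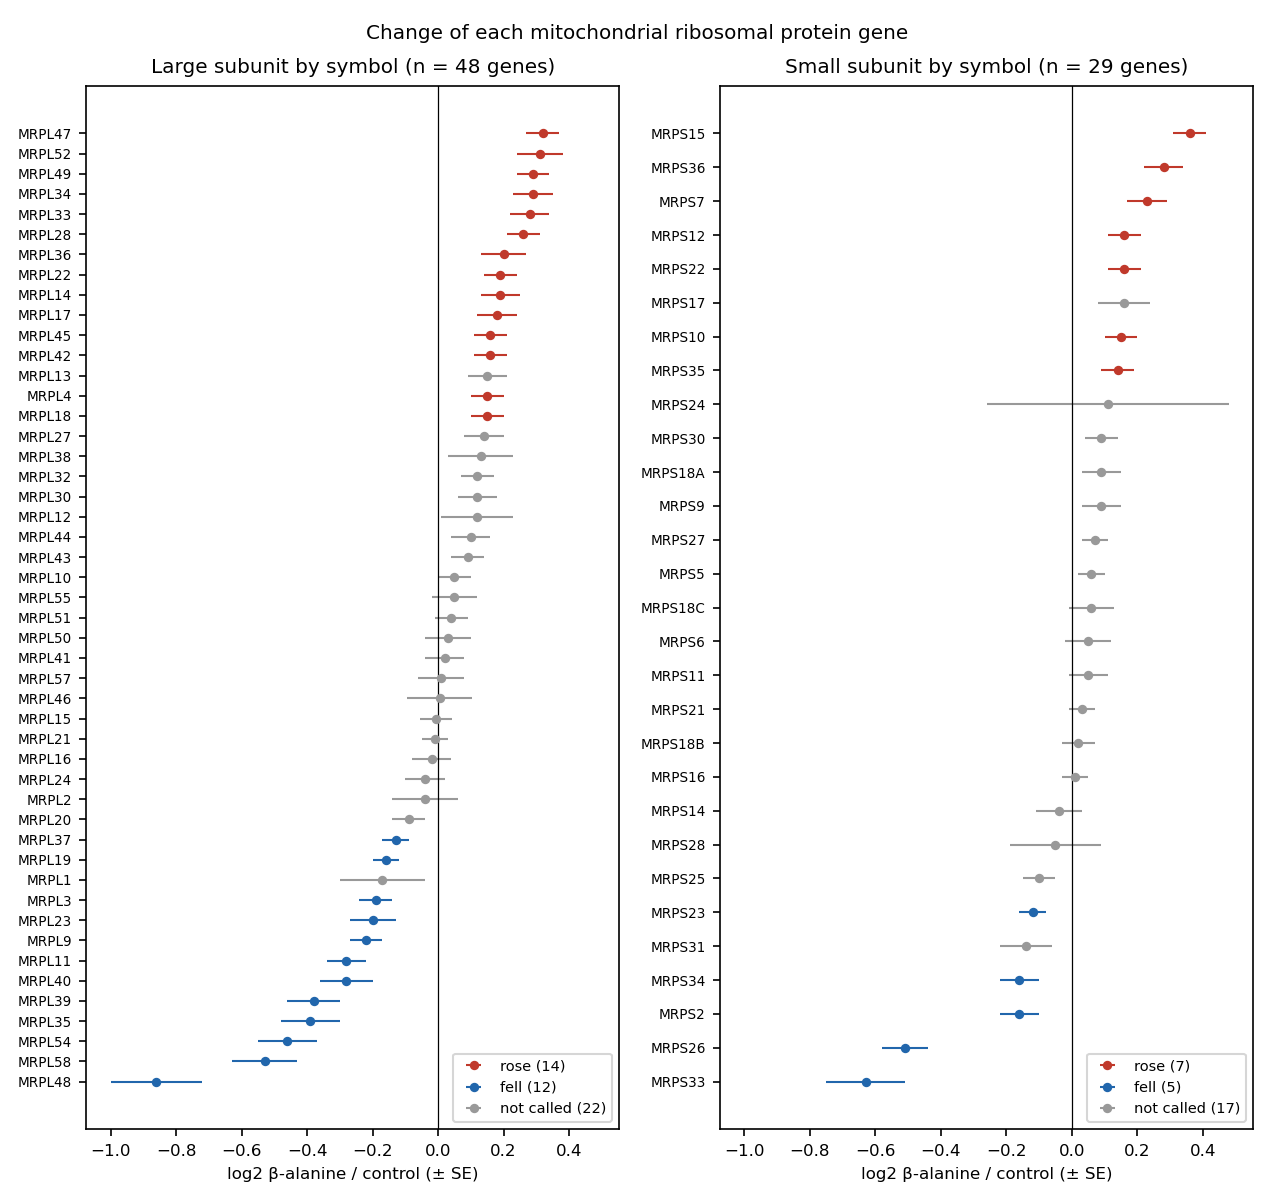
Log2 change of each member, β-alanine over control (horizontal axis, points with ± 1 SE bars), ordered by size, for the 48 large and 29 small subunit genes by symbol. Red genes rose, blue genes fell and grey genes were not called. Both panels run from falls to rises, with 14 rising and 12 falling in the large and 7 rising and 5 falling in the small subunit.

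The largest fall in the large subunit was that of MRPL48, a mitochondrion-specific protein, on chromosome 11 from 73787874 to 73865133 (GRCh38, RefSeq, as all positions here). In β-alanine libraries 1, 2 and 3 it stood at 4.46, 3.43 and 3.15 CPM, and at 6.87, 6.05 and 6.53 CPM in controls 1, 2 and 3. All treated libraries lay below all controls, and the log2 change was -0.86 ± 0.14 (SE), adjusted p = 0.000114. These levels rest on 64 to 105 counts per treated library and 127 to 133 per control.

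MRPL58, a peptidyl-tRNA hydrolase that frees stalled ribosomes and is also a structural part of the large subunit, stood at 9.54, 7.88 and 9.23 CPM after β-alanine and at 12, 13.9 and 12.3 CPM in controls. The groups did not overlap, and the log2 change was -0.53 ± 0.10, adjusted p = 0.000503 (chromosome 17, 75012670 to 75021261). MRPL54, another mitochondrion-specific protein, stood at 11.8, 11.6 and 10.5 CPM against 16.4, 15.2 and 14.7 CPM in controls. Again every treated library was below every control, with a log2 change of -0.46 ± 0.09. MRPL35, which has a bacterial homologue, was at 14.2, 17.2 and 17.4 CPM against 21.7, 23.3 and 19.6 CPM, a log2 change of -0.39 ± 0.09, with the lowest value in β-alanine library 1. MRPL39, a mitochondrion-specific protein related to threonyl-tRNA synthetase, was at 16.6, 17.1 and 15.6 CPM against 18.9, 22.2 and 22.8 CPM, a change of -0.38 ± 0.08.

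MRPL11, MRPL9 and MRPL3, all with bacterial homologues, fell less. MRPL11, at the base of the stalk that binds translation factors, was at 55.3, 46.2 and 48.7 CPM against 57.6, 65.4 and 58.2 CPM in controls, a log2 change of -0.28 ± 0.06, and β-alanine library 1 lay near control library 1. MRPL9 changed by -0.22 ± 0.05, with 95.97 ± 2.96 CPM in control and 82.8 ± 3.32 CPM in treated libraries (SD, n = 3 each), and MRPL3 by -0.19 ± 0.05, with 118.7 ± 2.83 CPM in control and 104.3 ± 5.16 CPM in treated libraries.

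Another 4 genes of the large subunit fell by calls that did not hold with every library left out. With all libraries the adjusted p was 0.00828 for MRPL19, 0.017 for MRPL40, 0.0313 for MRPL37 and 0.0342 for MRPL23. In the fits that lost the call the log2 change was -0.24 to -0.26 for MRPL40, -0.14 to -0.15 for MRPL19, -0.10 to -0.13 for MRPL37 and -0.19 to -0.22 for MRPL23, beside the values with all libraries that follow. MRPL40, a mitochondrion-specific protein, changed by -0.28 ± 0.08, and the call did not hold without β-alanine library 3 (adjusted p = 0.0803) or control libraries 1 (0.0633) or 2 (0.0792). MRPL19, with a bacterial homologue, changed by -0.16 ± 0.04 and lost its call without β-alanine libraries 2 (0.0542) or 3 (0.0569). MRPL37, mitochondrion-specific, changed by -0.13 ± 0.04 and lost its call without β-alanine libraries 2 (0.118) or 3 (0.0864) or control libraries 1 (0.121) or 2 (0.188). MRPL23, a bacterial homologue near the exit of the peptide tunnel, changed by -0.20 ± 0.07, and its call was lost without β-alanine libraries 2 (0.0698) or 3 (0.113) or control libraries 1 (0.0993), 2 (0.0899) or 3 (0.0675).

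The largest rises in the large subunit were those of MRPL47 and MRPL52. MRPL47, with a bacterial homologue at the exit of the peptide tunnel, stood at 60.9, 68.1 and 69.6 CPM after β-alanine and at 52.0, 52.7 and 55.2 CPM in controls. All treated libraries were above all controls, and the log2 change was 0.32 ± 0.05, adjusted p = 0.000157 (chromosome 3, 179588285 to 179604646). MRPL52, mitochondrion-specific and the carrier of both upstream motif matches printed above, was at 25.9, 29.98 and 29.8 CPM against 24.4, 22.7 and 22.5 CPM, a change of 0.31 ± 0.07. Library 1 of the treated group was the nearest to the controls in both genes.

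MRPL34, a small protein with a bacterial homologue, was at 44.3, 48.1 and 50.4 CPM against 37.5, 38.7 and 41.3 CPM, a log2 change of 0.29 ± 0.06. MRPL49, mitochondrion-specific, was at 116, 130 and 133 CPM against 104, 103 and 106 CPM, also a change of 0.29 ± 0.05, with adjusted p = 0.000131. MRPL33 and MRPL28, both with bacterial homologues, changed by 0.28 ± 0.06 and 0.26 ± 0.05. In MRPL33 the values were 31.4, 32.8 and 31.8 CPM against 27.2, 25.6 and 26.2 CPM, so the treated libraries lay close together and apart from the controls.

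The other 8 rises in the large subunit, from a log2 of 0.15 to 0.20, did not keep their calls with every library left out. In the fits that lost the call the log2 change was 0.14 for MRPL42, 0.14 to 0.16 for MRPL45, 0.16 to 0.18 for MRPL22, 0.14 to 0.15 for MRPL4 and 0.14 to 0.19 for MRPL14. MRPL42, mitochondrion-specific, rose by 0.16 ± 0.05 and lost its call only without control library 1 (adjusted p = 0.0629). MRPL45, which anchors the ribosome at the inner membrane, rose by 0.16 ± 0.05, and the call was lost without β-alanine library 3 (0.0843) or control libraries 2 (0.0518) or 3 (0.069). MRPL22 and MRPL4, homologues of bacterial proteins that line the peptide tunnel, rose by 0.19 ± 0.05 and 0.15 ± 0.05. The call of MRPL22 was lost without β-alanine libraries 2 (0.08) or 3 (0.052) or control library 2 (0.0947), and that of MRPL4 without β-alanine library 2 (0.0569) or control libraries 2 (0.0602) or 3 (0.0729). MRPL14, at the face between the subunits, rose by 0.19 ± 0.06, with losses without β-alanine libraries 2 (0.0567) or 3 (0.0637) or control libraries 2 (0.132) or 3 (0.0647).

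MRPL17, MRPL36 and MRPL18 complete this set, all with bacterial homologues. Their log2 changes in the fits that lost the call were 0.15 to 0.19, 0.14 to 0.22 and 0.12 to 0.17. MRPL17 rose by 0.18 ± 0.06, and the call was lost without β-alanine libraries 2 (adjusted p = 0.149) or 3 (0.0634) or control libraries 2 (0.109) or 3 (0.131). MRPL36 rose by 0.20 ± 0.07, with losses without β-alanine library 2 (0.24) or control libraries 1 (0.0633), 2 (0.115) or 3 (0.152). MRPL18 rose by 0.15 ± 0.05, with losses without β-alanine libraries 2 (0.192) or 3 (0.0512) or control libraries 1 (0.0529), 2 (0.16) or 3 (0.143).

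In the small subunit the largest fall was that of MRPS33, a mitochondrion-specific protein, on chromosome 7 from 141002610 to 141014952. It stood at 13.6, 12.6 and 9.14 CPM after β-alanine and at 17.2, 18.6 and 17.6 CPM in controls. The groups did not overlap, β-alanine library 3 was the lowest, and the log2 change was -0.63 ± 0.12, adjusted p = 0.00064. MRPS26, also mitochondrion-specific (chromosome 20, 3046052 to 3048250), was at 24.9, 24.1 and 25.9 CPM against 35.5, 37.3 and 33.6 CPM. Its change of -0.51 ± 0.07 was similar in the 3 treated libraries and had the smallest adjusted p of any member, 7.59e-06.

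MRPS34, MRPS2 and MRPS23 fell by less, and none of these calls held with every library left out. The log2 change in the fits that lost the call was -0.11 to -0.19 for MRPS34, -0.15 to -0.19 for MRPS2 and -0.10 to -0.14 for MRPS23. MRPS34, mitochondrion-specific, changed by -0.16 ± 0.06, and its call was lost without β-alanine libraries 2 (adjusted p = 0.125) or 3 (0.129) or control libraries 1 (0.216) or 2 (0.054). MRPS2, with a bacterial homologue, changed by -0.16 ± 0.06 and lost its call without β-alanine libraries 2 (0.132) or 3 (0.0622) or control libraries 1 (0.133), 2 (0.0893) or 3 (0.0865). MRPS23, mitochondrion-specific, changed by -0.12 ± 0.04 and lost its call without β-alanine libraries 2 (0.0878) or 3 (0.0924) or control libraries 1 (0.0607), 2 (0.179) or 3 (0.0547).

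MRPS15, with a bacterial homologue, had the largest rise of all members (chromosome 1, 36455718 to 36464384). It was at 96.2, 102 and 108 CPM after β-alanine and at 84.1, 76.0 and 79.0 CPM in controls. All treated libraries lay above all controls, and the log2 change was 0.36 ± 0.05, adjusted p = 1.56e-05. MRPS7, a homologue of a bacterial protein of the head of the small subunit, was at 107, 118 and 123 CPM against 104, 102 and 90.6 CPM, a change of 0.23 ± 0.06, with β-alanine library 1 close to control library 1. MRPS36, placed outside the ribosome in structures, was at 33.1, 36.8 and 37.1 CPM against 30.3, 29.7 and 28.8 CPM, a change of 0.28 ± 0.06.

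The remaining 4 rises in the small subunit did not keep their calls with every library left out. The log2 change in the fits that lost the call was 0.13 to 0.15 for MRPS12, 0.13 to 0.16 for MRPS22, 0.11 to 0.15 for MRPS10 and 0.11 to 0.16 for MRPS35. MRPS12, a homologue of the bacterial protein that sets decoding accuracy, rose by 0.16 ± 0.05, and the call was lost without β-alanine libraries 2 (adjusted p = 0.0991) or 3 (0.0749) or control library 3 (0.117). MRPS22, mitochondrion-specific, rose by 0.16 ± 0.05, with losses without β-alanine library 2 (0.0736) or control library 3 (0.115). MRPS10, with a bacterial homologue, rose by 0.15 ± 0.05, with losses without β-alanine libraries 2 (0.178) or 3 (0.0907) or control libraries 2 (0.0935) or 3 (0.186). MRPS35, mitochondrion-specific, rose by 0.14 ± 0.05, with losses without β-alanine libraries 2 (0.159) or 3 (0.0784) or control libraries 2 (0.0569) or 3 (0.136). At the threshold, the members just inside were MRPL36 (adjusted p = 0.0412), MRPS2 (0.0424) and MRPL18 (0.0435), and those just outside were MRPL13 (0.0539), MRPL32 (0.0891) and MRPL27 (0.109).

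**Figure D3:**
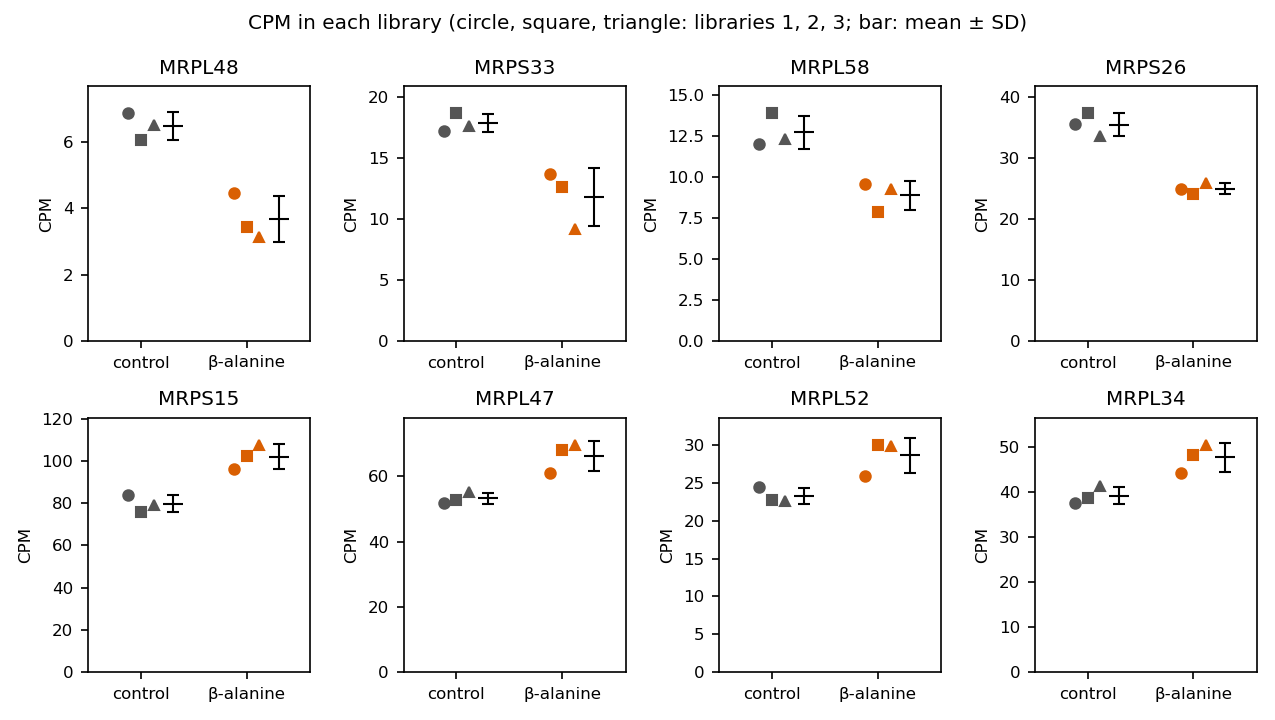
CPM (vertical axes, from 0) in each library for 4 genes that fell (upper row) and 4 that rose (lower row), controls in grey and β-alanine in orange, with library 1 as a circle, 2 as a square and 3 as a triangle, and the mean ± SD as bars (n = 3 per group). In all 8 genes the 3 treated libraries lie on one side of the 3 controls, as for MRPL48 at 3.15 to 4.46 against 6.05 to 6.87 CPM.

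Set against each other, the subunits shifted by nearly the same small amount. By symbol, 14 of 48 large subunit genes rose and 12 fell (54.2% called), and 7 of 29 small subunit genes rose and 5 fell (41.4% called), both beside the 27.9% over all tested genes. Among tested genes with an average log2 CPM of at least 2 and of at least 5, the share called was 35.1% and 40.4%, so that of the small subunit was close to the latter. The median log2 change was 0.05 in the large and 0.06 in the small subunit. Placing genes by ribosome structures gave 14 rising and 12 falling of 50 in the large, and 6 and 5 of 26 in the small subunit, with medians of 0.05 in both. The difference between the medians, large minus small, was -0.01, and it turned to 0.02 when counts were thinned to the smallest library.

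Per library, the mean log2 level of the large subunit relative to controls was -0.0077, 0.0055 and -0.0005 in β-alanine libraries 1, 2 and 3, within the control range of -0.0088 to 0.0152. For the small subunit it was 0.0256, 0.0172 and 0.0115, above the control range of -0.0145 to 0.0095. With subunits taken from structures it was 0.0129, 0.0019 and -0.0068 for the small subunit, overlapping the control range of -0.0101 to 0.0086. On a scale per length (CPM per kilobase of the principal transcript, averaged over the genes each subunit holds in structures), the ratio of large to small had a treated mean of 1.063 ± 0.012 and a control mean of 1.088 ± 0.0071 (SD, n = 3 each). The ratios ran from 1.05 to 1.074 in treated and from 1.082 to 1.096 in control libraries, so they did not overlap, and no test was made of this score. Genes with large changes per length weigh most in it. From control to treated means, MRPS15 rose from 79.2 to 101.5 and MRPS7 from 70.4 to 82.4 CPM per kilobase. MRPS26 fell from 31.5 to 22.1 and MRPS34 from 63.7 to 57.1. The part of single genes in the ratio was not tested. The summed level of all 77 members averaged 4376 ± 45.1 CPM in treated and 4264 ± 62.4 CPM in control libraries, or 0.430% to 0.447% of counts against 0.419% to 0.429%.

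**Figure D4:**
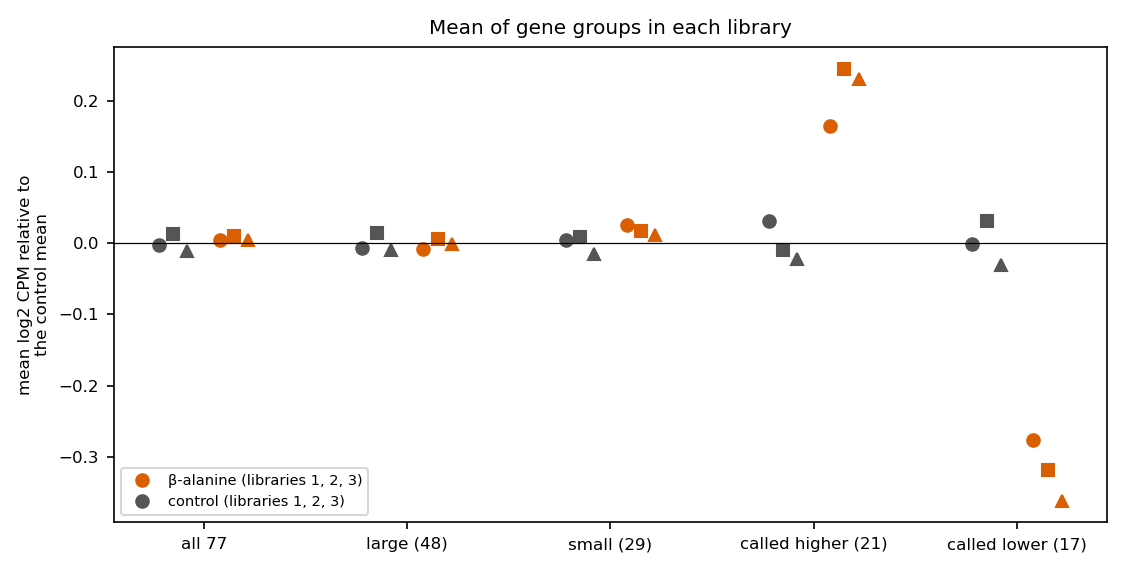
Mean log2 CPM relative to the control mean (vertical axis) in each library, for all 77 members, the large and small subunit by symbol, and the 21 and 17 members called higher and lower, with controls in grey, β-alanine in orange, and circles, squares and triangles for libraries 1, 2 and 3. The first 3 groups stay between -0.0145 and 0.0256, and the last 2, which were chosen by these same data, show β-alanine library 1 nearest to the controls (0.1642 and -0.2759).

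By origin as labelled here, calls in both directions were found among genes with a bacterial homologue and among genes labelled as mitochondrion-specific. The labels divide the MRPS18 family, with MRPS18A and MRPS18C under bacterial homologue and MRPS18B under mitochondrion-specific, so the sets below depend on them. Over all tested genes 27.9% were called, 14.1% as rising and 13.8% as falling. At an average log2 CPM of at least 2 and of at least 5 the share called was 35.1% and 40.4%. Of 47 members of the ribosome with a bacterial homologue, 14 rose and 7 fell (44.7% called), with a median log2 change of 0.06. Of 29 mitochondrion-specific members, 6 rose and 10 fell (55.2% called), with a median of 0.02. Falls of at least 1.25-fold numbered 1 in the first set (MRPL35) and 6 in the second (MRPL48, MRPS33, MRPL58, MRPS26, MRPL54 and MRPL39). No member with an average log2 CPM of at least 5 fell by that much. The difference between the sets, and the part of level in it, was not tested.

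Levels per length differed widely between members, in the controls as in the treated libraries. The length was that of the longest principal transcript, and the ranks rest on it. It was 4241 bases for MRPS33 (17.8 CPM in controls) and 850 bases for MRPS28 (5.97 CPM). In the large subunit MRPL21 was the highest, at 341.6 ± 19.7 CPM per kilobase (SD, n = 3 controls), followed by MRPL37 at 99.0 ± 5.37 and MRPL20 at 89.3 ± 1.20. The lowest were MRPL48 (4.22 ± 0.267), MRPL1 (4.41 ± 0.457) and MRPL38 (5.71 ± 0.645), of which the first pair lay within their spread. MRPL35 (5.78) and MRPL42 (5.81) lay within the spread of MRPL38. For MRPL42 this rests on a length of 15582 bases, as it was at 90.6 CPM in controls. In the small subunit MRPS21 (96.9 ± 1.72), MRPS5 (81.8 ± 1.23) and MRPS15 (79.2 ± 4.05) were the highest, of which the last pair lay within their spread, and MRPS24 (0.771 ± 0.139), MRPS33 (4.20 ± 0.176) and MRPS28 (7.02 ± 1.61) the lowest. None of MRPL21, MRPL20, MRPL1, MRPL38, MRPS21, MRPS5, MRPS24 and MRPS28 was called, with log2 differences of -0.01 ± 0.04, -0.09 ± 0.05, -0.17 ± 0.13, 0.13 ± 0.10, 0.03 ± 0.04, 0.06 ± 0.04, 0.11 ± 0.37 and -0.05 ± 0.14. MRPS24 had 8 to 16 counts per library, and 23.19% of its exonic bases are shared with a read-through gene on the same strand.

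Shared exons limit some counts, since use of strand was not stated. In the GENCODE release 29 annotation 40 of 77 members share exonic bases with another gene, and 11 share at least 20%, among them MRPL12 (68.19%), MRPS18A (47.04%, with RSPH9 on the other strand) and MRPS18C (40.2%, with ABRAXAS1). Of the 38 called members, 16 share some exonic bases and 1 shares at least 20%, MRPL33 (21.05%, with BABAM2). In 4 called members a partner on the other strand was called too. ABHD8, opposite MRPL34, changed by 0.29 on the log2 scale and C9orf116, opposite MRPS2, by -0.52. GCFC2, opposite MRPL19, changed by 0.21, and CYB5RL and SSBP3, opposite MRPL37, by -0.26 and -0.13. Pseudogene rows were low, with MRPL45P2 at 919 counts over all libraries against 9601 for MRPL45, and MRPS31P5 and MRPS31P4 at 144 and 46 against 2702 for MRPS31.

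Head-to-head genes, whose starts lie within 1000 bases on opposite strands, flanked 20 of the 68 members with a promoter entry (29.4%), against 14.8% of tested genes. Of these 20 neighbours 6 were called, beside 31.7% of such neighbours over all tested genes. Member and neighbour were both called in 3 pairs. MRPL18 and TCP1, a chaperonin subunit, both rose by a log2 of 0.15, and MRPL37 and CYB5RL both fell, by 0.13 and 0.26. MRPL54 fell by 0.46 while APBA3, 990 bases away, rose by 0.30 ± 0.08. MRPL46 and MRPS11 face each other 320 bases apart, and neither was called. MRPS30 changed by 0.09 ± 0.05 and was not called, while its divergent transcript MRPS30-DT rose by 1.46 ± 0.27.

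Members that rose, fell or were not called had a median longest-transcript GC content of 47.6%, 52.2% and 47.2%, beside 48.9% for all tested genes. Their median exonic lengths were 2144, 2539 and 2613 bases, beside 4371. With offsets for GC content and length, 30 of the 38 calls remained, and all 19 calls named as held above were among them.

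Other parts of the mitochondrial translation apparatus also moved both ways. Of 5 ribosomal subunits with other names, DAP3 and AURKAIP1 of the small subunit rose by 0.18 ± 0.04 and 0.23 ± 0.04, and GADD45GIP1 of the large subunit fell by 0.25 ± 0.06. DAP3 was at 391.7, 409 and 391 CPM against 351, 345 and 356 CPM in controls. PTCD3 (-0.04 ± 0.04) and CHCHD1 (-0.16 ± 0.06) were not called.

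Among 29 genes for ribosome assembly and rRNA modification, 5 rose and 3 fell (27.6%, against 27.9% over all tested genes), with a median log2 change of 0.01. MPV17L2, an assembly factor of the inner membrane, rose by 0.40 ± 0.07, the rRNA methyltransferase TRMT2B by 0.33 ± 0.06, and MTERF3 by 0.23 ± 0.06. ERAL1, which chaperones the small subunit rRNA, fell by 0.32 ± 0.06. RPUSD3, a pseudouridine synthase, rose by 0.19 ± 0.05, and NSUN4, an rRNA methyltransferase, fell by 0.21 ± 0.06. The calls of MTERF3 (adjusted p = 0.0561 without control library 2), RPUSD3 (0.083 without β-alanine library 3 and 0.0682 without control library 1) and NSUN4 (0.0559 without β-alanine library 2, 0.0548 and 0.0625 without control libraries 2 and 3) did not hold with every library left out, with log2 changes of 0.18, 0.16 and -0.20 to -0.22 in those fits.

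Among 18 mitochondrial translation factors, 5 rose and 1 fell (33.3%, against 27.9% over all tested genes), with a median of 0.07. TACO1, the translational activator of the COX1 subunit, fell most, from 19.5, 17.5 and 16.3 CPM in controls to 11.8, 10.8 and 10.2 CPM, a log2 change of -0.72 ± 0.09, adjusted p = 7.45e-06. The release factor gene MTRF1L stood at 16.1, 20.97 and 20.4 CPM against 13.9, 11.8 and 14.2 CPM, a change of 0.55 ± 0.10. Both genes had groups that did not overlap. MIEF1, whose transcript also encodes a small protein of ribosome assembly, rose by 0.26 ± 0.06 and the elongation factors TUFM and GFM1 by 0.17 ± 0.04 and 0.16 ± 0.05. The release factor MTRF1 rose by 0.30 ± 0.11. The call of GFM1 did not hold without β-alanine library 2 (adjusted p = 0.0645) or control library 1 (0.0987), and that of MTRF1 without β-alanine library 3 (0.295) or control libraries 1 (0.0882) or 2 (0.192).

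Of 10 genes for mitochondrial transcription and DNA replication, 4 rose and none fell, a share of 40.0% against 27.9% over all tested genes. The RNA polymerase POLRMT rose by 0.20 ± 0.04 and the helicase TWNK by 0.24 ± 0.06, while TFAM, which packs mitochondrial DNA, changed by 0.03 ± 0.04 and was not called. TFB2M and MTERF1 rose by 0.22 ± 0.07 and 0.27 ± 0.09, with calls lost without β-alanine libraries 2 (adjusted p = 0.128 and 0.125) or 3 (0.0677 and 0.123) or control library 3 (0.0793 and 0.0662), and for MTERF1 also without control libraries 1 (0.0624) or 2 (0.112). TWNK shares exonic bases with MRPL43 on the other strand.

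Of 13 genes for precursor and RNA processing, 5 rose and 1 fell (46.2%, against 27.9% over all tested genes). MIPEP, the intermediate peptidase that trims imported precursors, fell by 0.55 ± 0.10, whereas the protease CLPP rose by 0.25 ± 0.05. TRMT10C, HSD17B10 and PRORP, the 3 subunits of mitochondrial RNase P, rose by 0.23 ± 0.05, 0.17 ± 0.04 and 0.27 ± 0.08, and SUPV3L1, an RNA helicase, by 0.15 ± 0.05. The call of HSD17B10 did not hold without β-alanine library 2 (adjusted p = 0.0553), that of PRORP without β-alanine library 3 (0.0809) or control libraries 2 (0.0555) or 3 (0.0646), and that of SUPV3L1 without any of the 5 libraries other than β-alanine library 1 (0.0527 to 0.0943).

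Of 11 tested regulators of nuclear genes for mitochondrial proteins, 1 rose and 2 fell (27.3%, against 27.9% over all tested genes). NRF1 changed by -0.28 ± 0.08, MYC by -0.12 ± 0.04 and ESRRA by 0.26 ± 0.07. Each call was lost without some library: NRF1 without β-alanine libraries 2 (adjusted p = 0.0503) or 3 (0.0731) or control library 3 (0.121), MYC without β-alanine libraries 2 (0.214) or 3 (0.0791) or control libraries 1 (0.238) or 2 (0.0843), and ESRRA without β-alanine library 3 (0.0921) or control libraries 2 (0.0632) or 3 (0.0534). PPARGC1A had 2 counts over all 6 libraries.

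The RNA partners of these proteins differed between the subunits. MT-RNR1, the rRNA of the small subunit, was at 798, 758 and 698 CPM after β-alanine and at 920, 883 and 846 CPM in controls, a log2 change of -0.23 ± 0.04 with adjusted p = 0.000654. MT-RNR2, the rRNA of the large subunit, was at 14500, 15060 and 14020 CPM against 15660, 13990 and 13760 CPM, overlapping groups with a difference of 0.01 ± 0.04. Libraries were made from polyadenylated RNA, so these levels cover the part of the rRNA that was captured, and the difference between the 2 rRNAs was not tested. Of the 15 mitochondrially encoded transcripts in the table, 6 fell and none rose (40.0%, against 27.9% over all tested genes), with a median of -0.13. These transcripts are abundant, and 40.4% of tested genes with an average log2 CPM of at least 5 were called, 18.5% as falling. The calls of MT-RNR1 and MT-ATP8 held with each library left out. MT-ND5 had the largest change of the 15, -0.40 ± 0.09, and without β-alanine library 2 it stayed at -0.40 with adjusted p = 0.0512. MT-CO1 lost its call without β-alanine libraries 2 (0.0844) or 3 (0.0874) or control library 1 (0.12), at log2 changes of -0.09 to -0.15 against -0.16 ± 0.05 with all libraries. MT-CO3 lost its call without any β-alanine library (0.053, 0.0679 and 0.0833) or control library 1 (0.0844), at -0.10 to -0.20 against -0.17 ± 0.05, and MT-ATP6 without β-alanine libraries 2 (0.158) or 3 (0.094) or control libraries 1 (0.14) or 3 (0.0651), at -0.10 to -0.14 against -0.13 ± 0.04.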

How the data were processed

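The members and gene lists were chosen with earlier results of these data known. Members were the symbols matching MRPL or MRPS with a number and an optional letter A to C. The table the authors deposited holds whole-number raw counts, with gene symbols as rows and 1 column per library. The submitters' processing notes name STAR 2.7.3a, featureCounts 2.0.1 and Trimmomatic 0.39, along with bcl2fastq, DESeq2 and build GRCh38. Which annotation and strand setting the counting used is not stated there, so reads of overlapping genes may be lost or misassigned. Per the labels' protocols, RNA was polyadenylated and prepared with a TruSeq kit.

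Counts were filtered with filterByExpr and scaled by TMM, and β-alanine was compared with control across all genes with edgeR 4.0.16 (quasi-likelihood, robust, two-sided, R 4.3.3), with p-values adjusted over 17331 genes by Benjamini-Hochberg and a threshold of 0.05. The test was checked on simulated data. CPM uses TMM-scaled totals, and library means of log2 CPM add 0.5. Totals were 14433801 to 32909568 counts. Every called member is named, as are the 5 largest changes each way with an average log2 CPM of at least 1, the 3 highest and lowest per length in each subunit, 3 genes either side of the threshold and up to 6 called genes per list. YY1, TFAM, PTCD3, CHCHD1, PPARGC1A, the marker genes and genes adjoining or overlapping members were named after their values were seen. Lengths, GC content and overlaps came from GENCODE release 29, and positions and promoters from RefSeq on GRCh38.p14. Motifs were chosen after the fit. Alternatives were other scalings, filters, DESeq2 1.42.0, limma-voom 3.58.1, no robust shrinkage, a replicate block, a threshold of 0.01, thinning, GC and length offsets, and leaving out each library.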

Additional observations from a re-analysis of the deposited data

How the results depend on the processing

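All 38 calls kept their direction in every alternative run. They also kept their side of the threshold with RLE or upper quartile scaling, a filter of 1 CPM in 3 libraries, no robust shrinkage and a replicate block, which left 21 rising and 17 falling members. Library totals, no low-count filter, DESeq2, limma-voom, thinning, and GC and length offsets kept 34, 34, 29, 37, 31 and 30 of the 38. At an adjusted p under 0.01, 1454 genes rose and 1391 fell over all genes, and 9 and 11 members, with 6 rising in the large and 3 rising and 2 falling in the small subunit. The 5 falling small subunit genes became 3 with library totals, no low-count filter, thinning or the offsets, and 2 with DESeq2.

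Leaving out each library gave 1501 to 3204 rising and 1473 to 3294 falling genes over all genes, 11 to 25 and 10 to 17 members, 7 to 18 and 8 to 12 in the large, and 3 to 7 and 2 to 5 in the small subunit. The large minus small median ran from -0.0271 to 0.0032 over these fits, and was 0.0204 after thinning. Deviations of same-numbered libraries had correlations of 0.0496, 0.0037 and 0.0716, and those of differently numbered libraries ran from -0.0718 to 0.008. The labels do not say that a number marks a shared culture, so the numbers were not taken as pairs. With the replicate block 5172 genes were called over all genes, against 4830.

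Of the 11 uncalled members named for their level or adjusted p, 4 changed sign (the other uncalled members were not followed): MRPL21 was 0.0031 with library totals, a scaling that moves all genes alike, 0.0038 without β-alanine library 1 and 0.0217 without control library 2, MRPS21 was -0.0148 with the offsets, MRPS24 was -0.1546 without β-alanine library 1 and -0.0138 without control library 1, and MRPS28 was 0.1435 without control library 3. Over the fits that left out 1 library, MRPL21 ran from -0.0625 to 0.0217, MRPS24 from -0.1546 to 0.3101 and MRPS28 from -0.1503 to 0.1435. None of these genes was called with all 6 libraries. Depth limits MRPS24 most, at 8 to 16 counts per library.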
